A study of Homo sapiens with 4 samples.

Results

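Molecular chaperones bind proteins that are being made, moved or unfolded and keep them from clumping. HSP70 proteins hold short greasy stretches of a client in a cycle of ATP use that J-domain proteins start and exchange factors reset, HSP90 proteins take over clients that are nearly folded, and the ring-shaped TRiC (or CCT) chaperonin encloses actin, tubulin and other proteins that cannot fold unaided. Small heat shock proteins hold unfolded clients without using ATP, mitochondria keep their own HSP70, HSP60, HSP10 and HSP90, and the factor HSF1 switches on many of these genes when unfolded protein builds up.

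The genes described here are 39 chaperone, cochaperone and heat shock factor genes, taken by gene symbol from a fixed list. All 39 were found among the 55765 gene symbols of the deposited count table, and 37 had enough reads to be tested. They were sorted by role into HSP70 and HSP110 proteins, HSP90 proteins, mitochondrial chaperones, small heat shock proteins, J-domain proteins, TRiC subunits, cochaperones and heat shock factors. RNA was measured by sequencing of ribosomal RNA-depleted total RNA from SK-N-BE(2)C, an established human neuroblastoma line with amplified MYCN. Cells had received 10 µM all-trans retinoic acid (ATRA), the vitamin A acid that makes many neuroblastoma lines differentiate, or ethanol, in which ATRA was dissolved, each for 144 h. There were 2 libraries with ATRA and 2 with ethanol, all from this 1 line. Nothing in the labels tells if a group's libraries came from different dishes of cells, so each p-value reflects no more than how far the 4 libraries scatter, and that scatter can be technical.

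In each group 1 library title ends in 2, and that library is called replicate 2 here. The library without a number in its title is called replicate 1. Total counts lay between 12850462 and 19883465 per library. Libraries also parted by replicate number, with 2.49% and 5.96% of the counts from mitochondrial ribosomal RNA in ATRA replicate 1 and ethanol replicate 1, and 0.130% and 0.0291% in ATRA replicate 2 and ethanol replicate 2. Differences within each replicate number are therefore given beside the fitted values. The 8 markers of sympathoadrenal neuroblastoma cells were found in every library at 40.0 CPM (the count scaled to a common library size) or more, with MYCN between 1778 and 3739 CPM. Of 5 immune markers, CD68 and LYZ had no read in any library. The 4 Schwann cell markers summed to 17.5 and 20.1 CPM with ATRA and to 6.70 and 5.80 CPM with ethanol, with 0 of the 4 called. The 7 fibroblast and smooth muscle markers summed to 288 and 370 CPM with ATRA and to 199 and 433 CPM with ethanol. Of these, 1 was called higher, COL3A1 (log2 fold change 6.36). COL1A1, ACTA2 and TAGLN had log2 fold changes of 5.26, 3.54 and 1.34 and were not called. In each of these 3 both ATRA libraries were above both ethanol libraries. PDGFRB and DCN had log2 fold changes of -0.46 and -0.64, with overlapping groups, and were not called. COL1A2 had too few reads to be tested. The part of such cells in the chaperone levels was not tested, and in bulk RNA fewer cells of a type and less RNA per cell cannot be told apart.

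The binding site of HSF1, the heat shock element, is made of the triplet GAA and its reverse complement TTC in alternation, 2 bases apart. Promoter stretches of genes that the results below turn on are shown with these elements, or with the MYC-type E-box CACGTG, in capitals. They come from RefSeq promoter windows (250 bases before to 50 after an annotated start site, GRCh38.p14), each read 5′ to 3′ on the strand of its gene. Only bases around the motif are shown where the motif lies in an annotated exon of another transcript. HSPB8 is shown because it had the largest change, HSPD1, HSPE1 and HSPA9 because their levels were lower together, HSPA1A and HSPA1B because they are near-identical copies, and the others because they carry 3-unit elements and had small changes.
HSPB8 (chr12:119178832-119178861, plus strand): tcatcacctccGAATATTCctgtgacagga
HSPD1, E-box (chr2:197500345-197500374, minus strand): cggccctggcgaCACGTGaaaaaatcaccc
HSPE1, E-box (chr2:197500345-197500374, plus strand): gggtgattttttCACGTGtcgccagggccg
HSPD1, inner start site (chr2:197500061-197500090, minus strand): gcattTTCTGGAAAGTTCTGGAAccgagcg
HSPA9 (chr5:138575403-138575432, minus strand): cgcccctcacccCACGTGgttggaggtttc
HSPA1A (chr6:31815412-31815463, plus strand): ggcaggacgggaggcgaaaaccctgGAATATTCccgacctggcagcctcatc
HSPA1B (chr6:31827608-31827665, plus strand): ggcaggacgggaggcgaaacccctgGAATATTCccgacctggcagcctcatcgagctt
HSPA8 (chr11:123062336-123062386, minus strand): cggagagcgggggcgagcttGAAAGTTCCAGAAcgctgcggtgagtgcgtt
HSP90AB1 (chr6:44247753-44247865, plus strand): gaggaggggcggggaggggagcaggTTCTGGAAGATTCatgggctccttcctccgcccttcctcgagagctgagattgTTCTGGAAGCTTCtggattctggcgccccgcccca
HSP90AA1 (chr14:102087111-102087140, minus strand): gagggttcTTCCGGAAGGTTCgggaggctt
DNAJB6 (chr7:157336848-157336910, plus strand): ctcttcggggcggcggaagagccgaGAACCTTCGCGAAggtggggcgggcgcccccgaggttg

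Did ATRA change chaperone expression? Over all genes, edgeR's quasi-likelihood test called 0.545% of the 18900 genes tested higher and 0.153% lower at a Benjamini-Hochberg adjusted p under 0.05. Of the 37 chaperone genes tested, 0 were called higher and 0 lower, with adjusted p between 0.146 and 0.987. At an unadjusted p under 0.05, 1 was higher (HSPB8) and 2 were lower (HSPD1 and HSPA14), beside 9.43% and 6.49% of all genes. DESeq2 called 1 higher and 0 lower, beside 4.64% and 2.66% of all genes. The limma-voom fit called 0 in either direction, beside 0.228% and 0.037%. With replicate number as a second term, edgeR called 2 higher and 6 lower, beside 12.3% and 9.38% of all genes. DESeq2 with that term called 1 higher and 3 lower, beside 8.08% and 6.34%. The labels do not say what the replicate numbers mark. Unless another fit is named, calls are from edgeR with treatment as the only term. In that fit the smallest change that passed in any gene was 1.73 on the log2 scale. Of the 37 chaperone genes tested only HSPB8 was beyond that size.

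Both ATRA libraries were below both ethanol libraries in 15 of 37 genes (40.5%), beside 21.7% of all genes tested, and above them in 5 (13.5%), beside 23.8%. The median log2 fold change of the 37 was -0.08, with -0.22 within replicate 1 and -0.09 within replicate 2, while that of all genes tested was 0.01. Of the 15, all 5 mitochondrial chaperones and 7 of 8 TRiC subunits account for 12. In 16 of the 37 genes (43.2%) the libraries differed more by replicate number than by treatment, beside 49.5% of all genes tested. The plot of levels in each library shows this range, with ATRA points below ethanol points across the mitochondrial and TRiC blocks and mixed points in the HSP90 and heat shock factor blocks.

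**Figure D1:**
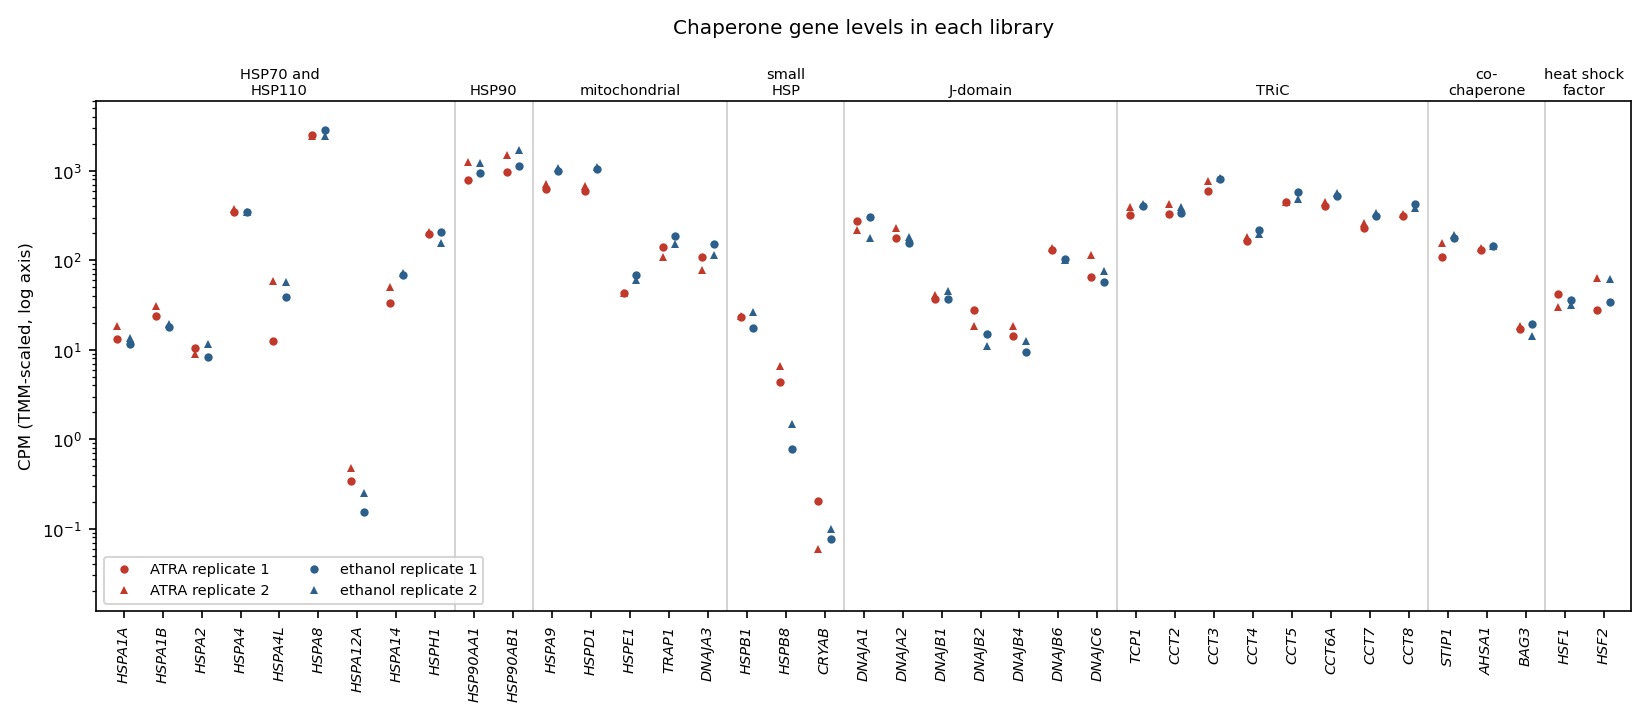
CPM (TMM-scaled, log axis) of the 39 chaperone genes, grouped by role, with ATRA libraries in red to the left of ethanol libraries in blue for each gene; circles are replicate 1 and triangles replicate 2 of each group. Levels run from below 1 CPM for HSPA12A and CRYAB to 2893 CPM for HSPA8 in ethanol replicate 1, and both HSPD1 points with ATRA (601 and 685 CPM) lie below both with ethanol (1059 and 1106 CPM).

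The small heat shock protein HSPB8 differed most. HSPB8 works with BAG3 and HSP70 to hand misfolded protein to autophagy. It had 65 and 110 reads with ATRA, against 10 and 30 with ethanol, which is 4.40 and 6.58 CPM with ATRA against 0.770 and 1.49 CPM with ethanol. Both ATRA libraries were above both ethanol libraries at a level that was low throughout. The fitted log2 fold change was 2.26 ± 0.59 (SE), or 4.78-fold, with 2.34 and 2.06 within replicates 1 and 2, and it was not called (adjusted p 0.146, edgeR quasi-likelihood). It was called by DESeq2 (adjusted p 0.0224), in the edgeR fit over every gene with at least 1 count (0.0234) and in the edgeR fit without ethanol replicate 2 (0.0302). In that last fit ethanol is 1 library of 10 reads, which is assumed to vary as the ATRA libraries do. Of all genes, the fit over every gene called 3.02% higher and 1.86% lower and the fit without that library 3.98% higher. Its adjusted p ran from 0.00399 to 0.321 over all alternatives. Its partner BAG3, an HSP70 exchange factor, had overlapping groups, with 17.2 and 18.4 CPM with ATRA against 19.5 and 14.3 CPM with ethanol.

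HSPB1, the small heat shock protein that caps actin filaments and holds unfolded clients, had 23.3 and 23.9 CPM with ATRA and 17.5 and 26.5 CPM with ethanol, so the groups overlapped (log2 0.10 ± 0.31, adjusted p 0.937, edgeR quasi-likelihood). It turned to -0.21 in the fit without ethanol replicate 1. CRYAB, the lens and muscle member of the family, had 3 and 1 reads with ATRA and 1 and 2 with ethanol, too few to be tested. Its neighbours in the family were likewise scarce: of 7 other small heat shock protein genes 2 were tested. HSPB7, a heart and muscle member, was at 1.08 and 0.838 CPM with ATRA, below 3.54 and 2.23 CPM with ethanol (log2 -1.58 ± 0.59, adjusted p 0.274, edgeR quasi-likelihood).

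The 5 mitochondrial chaperone genes were all lower with ATRA in both replicate numbers, as were 35.3% of all genes tested. Log2 fold changes of the 5 ran from -0.75 to -0.44, and none was called with treatment as the only term. With replicate number as a second term, edgeR called HSPD1, HSPE1, HSPA9 and DNAJA3 lower. That fit called 9.38% of all genes tested lower and 12.3% higher. HSPD1, or HSP60, forms the folding chamber of the mitochondrial matrix. It had 601 and 685 CPM with ATRA, against 1059 and 1106 CPM with ethanol, a gap larger than the spread within either group. Its log2 fold change was -0.75 ± 0.25, or 0.594-fold (adjusted p 0.219, edgeR quasi-likelihood), with -0.82 and -0.69 within replicates. HSPE1, or HSP10, is the lid of that chamber. It had 43.4 and 43.4 CPM with ATRA, against 69.0 and 60.3 CPM with ethanol (log2 -0.57 ± 0.24). HSPA9, the mitochondrial HSP70 that pulls proteins in and folds them, had 632 and 718 CPM with ATRA, against 987 and 1065 CPM with ethanol (log2 -0.60 ± 0.25, adjusted p 0.318, edgeR quasi-likelihood). In all of these the ATRA and ethanol libraries stood apart.

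DNAJA3, the J-domain partner of mitochondrial HSP70, had 108 and 78.2 CPM with ATRA, against 151 and 114 CPM with ethanol (log2 -0.51 ± 0.29). TRAP1, the mitochondrial HSP90, had 142 and 109 CPM with ATRA and 187 and 153 CPM with ethanol. Each of the pair was lower with ATRA by -0.39 to -0.54 on the log2 scale within a replicate number, while replicate 1 exceeded replicate 2 in both groups. Summed over the 5 genes, the level was 1527 and 1633 CPM with ATRA, against 2452 and 2498 CPM with ethanol. Among 12 other mitochondrial genes, the partners of HSPA9 and the proteases of protein quality control, 0 were called. In 5 (41.7%) both ATRA libraries were below both ethanol libraries and in 0 above, beside 21.7% and 23.8% of all genes tested. Within both replicate numbers 6 of the 12 (50%) were lower and 4 (33.3%) higher, beside 35.3% and 38.3% of all genes tested. TIMM44, which tethers HSPA9 to the import channel, had 63.1 and 43.1 CPM with ATRA, against 95.5 and 74.6 CPM with ethanol (log2 -0.68 ± 0.29, adjusted p 0.342, edgeR quasi-likelihood). CLPP, the matrix protease, had 38.7 and 27.3 CPM with ATRA, against 52.0 and 45.8 CPM with ethanol (log2 -0.57 ± 0.28).

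HSPD1 and HSPE1 lie head to head, with annotated start sites 105 bases apart, and the E-box shown above is the same 6 bases in both windows, 88 bases before the HSPD1 start and 22 before that of HSPE1. HSPA9 carries an E-box 19 bases before its start. The only other chaperone gene with an E-box in its windows was HSF2, whose groups overlapped (log2 -0.07), and DNAJA3 and TRAP1, which were lower too, had none. E-boxes were found in 9.80% of the 51 chaperone windows, which cover 35 of the 39 genes, and in 7.26% of the 35116 windows of all genes. MYCN, whose protein binds such sites, was at 2319 and 1778 CPM with ATRA and at 3739 and 2910 CPM with ethanol, a difference that was not called (log2 -0.70, adjusted p 0.345, edgeR quasi-likelihood). The part of MYCN in the level of these genes was not tested. The HSPD1 to HSPE1 ratio of CPM was 13.9 and 15.8 with ATRA and 15.3 and 18.4 with ethanol. Per kilobase of exon HSPD1 had 250 ± 23.1 CPM with ATRA and 421 ± 13.0 CPM with ethanol, and HSPE1 had 42.1 ± 0.0551 CPM with ATRA and 62.7 ± 5.99 CPM with ethanol (SD, n = 2 each). HSPE1 is the chaperone gene outside the HSPA1 pair whose transcripts share most 50-base stretches with other genes, 22.8%, mainly with the readthrough gene HSPE1-MOB4, which had no reads. How reads in such stretches were counted is not known, so the level of HSPE1 is uncertain.

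**Figure D2:**
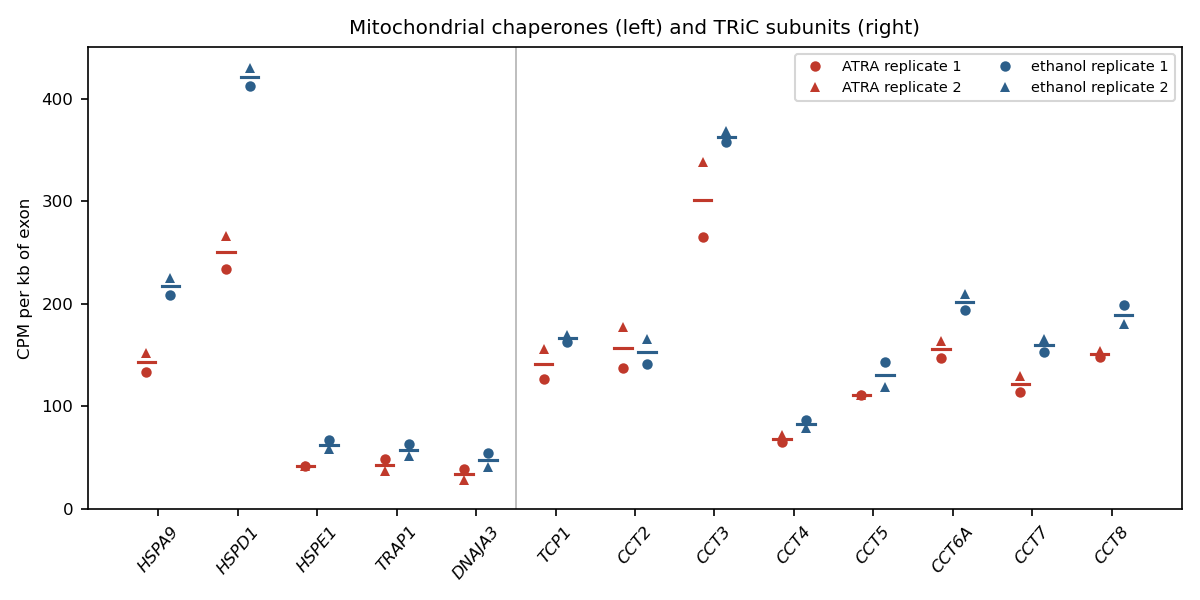
Level per length (CPM per kb of exon) of the 5 mitochondrial chaperone genes on the left and the 8 TRiC subunit genes on the right, with ATRA libraries in red left of ethanol libraries in blue; circles are replicate 1, triangles replicate 2 and bars the mean of 2 libraries. All genes but CCT2 have both ATRA points below both ethanol points, with the widest gap in HSPD1.

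TRiC is a double ring in which each ring holds 1 copy of each subunit. Of its 8 subunit genes 7 (87.5%) had both ATRA libraries below both ethanol libraries, beside 21.7% of all genes tested, and the exception was CCT2. The differences were small, with log2 fold changes from -0.39 to 0.04 (median -0.27), and none was called (adjusted p from 0.509 to 0.977, edgeR quasi-likelihood). They were larger within replicate 1 (median -0.40) than within replicate 2 (median -0.13). The summed TRiC level was 2806 and 3248 CPM with ATRA, against 3615 and 3621 CPM with ethanol, so the ethanol libraries nearly coincided and ATRA replicate 1 lay lowest.

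CCT7 had the most negative value, with 232 and 264 CPM with ATRA, against 313 and 339 CPM with ethanol (log2 -0.39 ± 0.24). CCT6A followed with 401 and 445 CPM with ATRA, against 528 and 570 CPM with ethanol. CCT8 had 316 and 329 CPM with ATRA and 424 and 385 CPM with ethanol. These 3 subunits kept differences of -0.23 or more negative within both replicate numbers. CCT3, the subunit with the highest level, had 599 and 766 CPM with ATRA and 810 and 833 CPM with ethanol (log2 -0.27 ± 0.26). CCT4 had 164 and 182 CPM with ATRA and 218 and 199 CPM with ethanol. CCT5 had 450 and 449 CPM with ATRA and 578 and 478 CPM with ethanol. In these 3 genes and in TCP1, the subunit first described, the difference within replicate 2 was between -0.13 and -0.09. TCP1 had 317 and 390 CPM with ATRA and 407 and 423 CPM with ethanol. CCT2 had 327 and 424 CPM with ATRA and 336 and 396 CPM with ethanol, with overlap and a log2 fold change of 0.04 ± 0.26.

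Per kilobase of exon the subunits spanned a several-fold range . CCT3 led with 302 ± 52.1 CPM with ATRA and 363 ± 7.27 CPM with ethanol, and CCT4 was lowest with 68.6 ± 4.86 CPM with ATRA and 82.7 ± 5.57 CPM with ethanol (SD, n = 2 each). In ethanol TCP1 (166 ± 4.42), CCT7 (160 ± 8.78) and CCT2 (153 ± 17.6) did not differ beyond their spread. Exon lengths are unions over annotated transcripts, so long exons of rare transcripts lower a value on this scale. For CCT6A, pseudogene rows of the same name held 7.37% and 7.03% as many reads as the gene with ATRA and 5.95% and 4.22% with ethanol, more than for any other of the 13 chaperone genes looked up in this way. Before TRiC, prefoldin binds its clients, and after it tubulin cofactors join the tubulin pair. Of 15 such genes 0 were called. In 4 (26.7%) both ATRA libraries were above and in 2 (13.3%) below both ethanol libraries, beside 23.8% and 21.7% of all genes tested. TBCA, a tubulin cofactor, had 61.4 and 69.5 CPM with ATRA, against 90.4 and 89.2 CPM with ethanol (log2 -0.46 ± 0.23, adjusted p 0.417, edgeR quasi-likelihood), and the prefoldin subunit gene PFDN1 had 46.6 and 51.4 CPM with ATRA, against 38.6 and 44.3 CPM with ethanol (log2 0.24 ± 0.24).

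Cytosolic HSP70 RNA was dominated by HSPA8, the constitutive HSC70 that also strips clathrin from vesicles. It had 2487 and 2445 CPM with ATRA and 2893 and 2448 CPM with ethanol (log2 -0.11 ± 0.27, adjusted p 0.915, edgeR quasi-likelihood). Ethanol replicate 1 lay highest and the other 3 libraries were within a narrow band. HSPA1A and HSPA1B, the heat-inducible HSP70 genes, were far below on the scale per length: with ATRA, HSPA1A had 5.32 and 7.44 CPM per kb and HSPA1B 9.54 and 12.1, beside a mean of 914 for HSPA8. HSPA1B had 24.0 and 30.4 CPM with ATRA, above 18.1 and 19.4 CPM with ethanol (log2 0.54 ± 0.28, adjusted p 0.429, edgeR quasi-likelihood). HSPA1A had 13.2 and 18.5 CPM with ATRA and 11.6 and 13.5 CPM with ethanol, with overlap (log2 0.34 ± 0.33). Of the 50-base stretches of HSPA1A, 71.3% also occur in HSPA1B, so the split of reads between them is uncertain. Their printed promoter stretches carry the same 2-unit element, 106 and 105 bases before the start sites.

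HSPA14, an HSP70 that works at the ribosome with the J-domain protein DNAJC2, had 33.6 and 50.1 CPM with ATRA, against 68.7 and 71.2 CPM with ethanol. Both ATRA libraries lay lower, and the difference was larger within replicate 1 (-1.03) than within replicate 2 (-0.51). The log2 fold change was -0.74 ± 0.28 and was not called (adjusted p 0.281, edgeR quasi-likelihood). DNAJC2 itself had 61.6 and 54.3 CPM with ATRA, against 89.8 and 70.7 CPM with ethanol (log2 -0.47 ± 0.25). The HSP110 genes, whose proteins reset HSP70, differed little or unevenly. HSPA4 had 349 and 374 CPM with ATRA and 351 and 348 CPM with ethanol, and HSPH1 had 199 and 206 CPM with ATRA and 209 and 157 CPM with ethanol. HSPA4L, the third of them, had 12.6 CPM in ATRA replicate 1, while the other 3 libraries had 59.4 CPM with ATRA and 38.5 and 57.3 CPM with ethanol. It was called lower only in the fit without ATRA replicate 2 (log2 -1.94 ± 0.48, adjusted p 0.00152, edgeR quasi-likelihood), a fit that called 4.05% of all genes higher and 2.92% lower. There ATRA is 1 library, the low one, which is assumed to vary as the ethanol libraries do. It was positive, at 0.30, in the fit without ATRA replicate 1, and over all alternatives its adjusted p ran up to 0.972.

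HSPA2, best known from the testis, had 10.4 and 8.85 CPM with ATRA and 8.39 and 11.7 CPM with ethanol. HSPA12A, a distant member of the family, had 5 and 8 reads with ATRA and 2 and 5 with ethanol and was not tested. Among 11 other HSP70 and HSP70 partner genes, of which 10 were tested, 0 were called. HSPA13, a microsomal HSP70, had 148 and 160 CPM with ATRA, above 90.9 and 121 CPM with ethanol (log2 0.54 ± 0.26, adjusted p 0.386, edgeR quasi-likelihood). BAG6, which guards hydrophobic tails of new proteins, had 136 and 180 CPM with ATRA and 85.1 and 133 CPM with ethanol (log2 0.53 ± 0.32), with the groups just apart.

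J-domain proteins choose the clients of HSP70 and start its ATP use. Of the 7 cytosolic J-domain genes 6 had positive log2 fold changes, beside 9600 of the 18900 genes tested, and none was called. In 3 of the 7 (42.9%) both ATRA libraries were above both ethanol libraries, beside 23.8% of all genes tested. DNAJB2, a J-domain protein of neurons that passes ubiquitinated clients to the proteasome, had 28.0 and 18.4 CPM with ATRA, above 14.9 and 10.9 CPM with ethanol. The log2 fold change was 0.84 ± 0.35 (adjusted p 0.327, edgeR quasi-likelihood), with 0.90 and 0.75 within replicates, and in both groups replicate 1 was the higher library. DNAJB4 had 14.4 and 18.6 CPM with ATRA, above 9.39 and 12.4 CPM with ethanol (log2 0.60 ± 0.34). DNAJB6, which keeps polyglutamine proteins from aggregating, had 130 and 136 CPM with ATRA, above 102 and 101 CPM with ethanol (log2 0.39 ± 0.23).

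DNAJC6, the neuronal auxilin that directs HSPA8 to clathrin coats, had 64.9 and 115 CPM with ATRA and 57.4 and 75.7 CPM with ethanol. Its groups overlapped, and replicate 2 was higher in both. DNAJA1 and DNAJA2 are general HSP70 partners. DNAJA1 had 275 and 219 CPM with ATRA and 307 and 178 CPM with ethanol (log2 0.03 ± 0.33), and its sign turned with library size alone as the scaling (-0.02). DNAJA2 had 175 and 227 CPM with ATRA and 158 and 181 CPM with ethanol. DNAJB1, the heat-inducible partner of HSP70, had 37.3 and 40.7 CPM with ATRA and 36.6 and 45.8 CPM with ethanol, with overlap. Of 28 other J-domain genes tested, 0 were called. In 6 (21.4%) both ATRA libraries were above and in 7 (25%) below both ethanol libraries, beside 23.8% and 21.7% of all genes tested. DNAJB5, a relative of DNAJB1, had 49.1 and 24.8 CPM with ATRA, above 20.8 and 13.1 CPM with ethanol (log2 1.13 ± 0.43, adjusted p 0.280, edgeR quasi-likelihood). DNAJC12, a partner of aromatic amino acid hydroxylases, had 41.0 and 53.7 CPM with ATRA, above 25.7 and 27.2 CPM with ethanol (log2 0.84 ± 0.27, adjusted p 0.202, edgeR quasi-likelihood). DNAJC21, a factor of ribosome assembly, had 45.0 and 53.8 CPM with ATRA, below 85.8 and 77.2 CPM with ethanol (log2 -0.72 ± 0.24, adjusted p 0.225, edgeR quasi-likelihood).

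**Figure D3:**
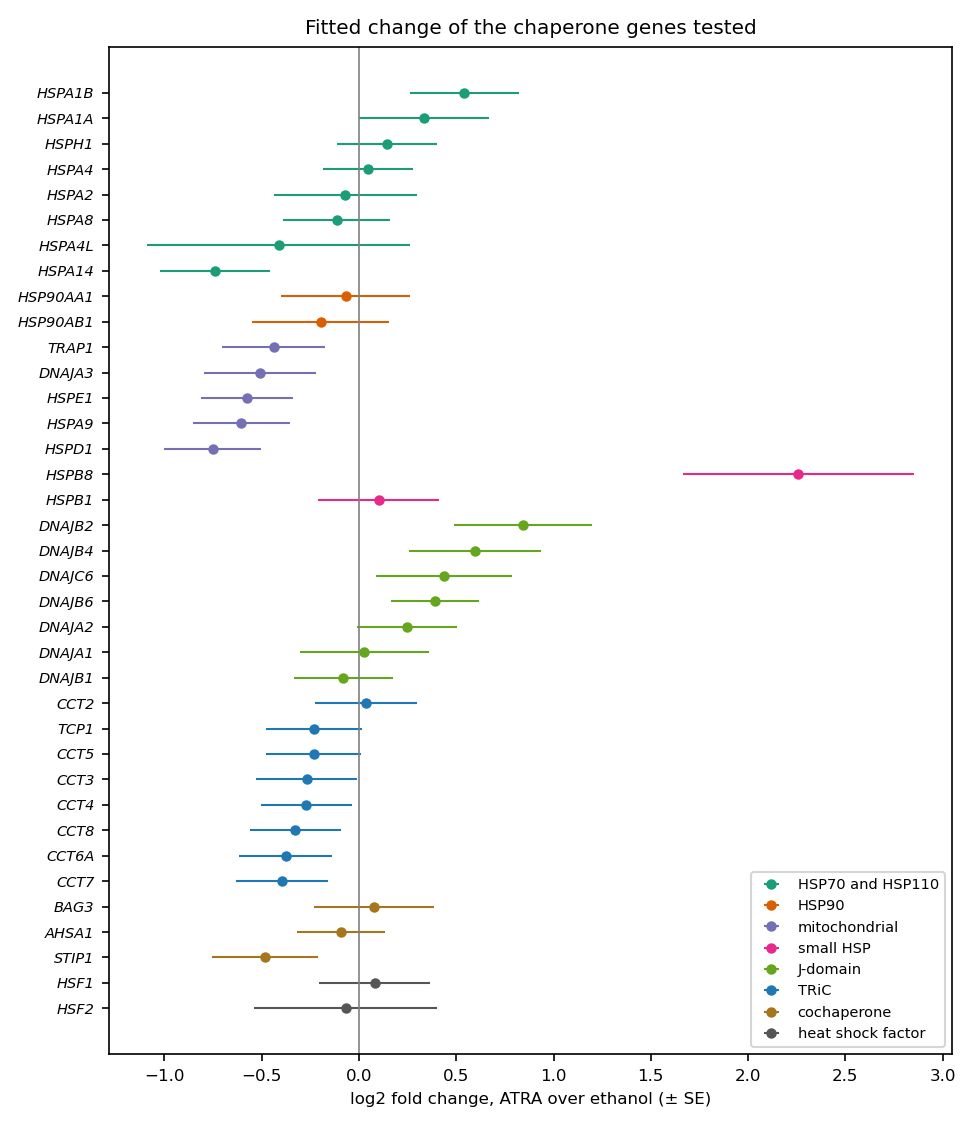
Fitted log2 fold change of ATRA over ethanol for the 37 chaperone genes tested, grouped and coloured by role; points are the edgeR estimates and bars their standard errors (2 libraries per group). HSPB8 stands alone at 2.26, the 5 mitochondrial chaperones lie between -0.75 and -0.44, and CCT2 is the only TRiC subunit above 0.

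The HSP90 genes differed more by replicate number than by treatment. HSP90AA1, the inducible form, had 786 and 1267 CPM with ATRA and 938 and 1213 CPM with ethanol (log2 -0.07 ± 0.33). HSP90AB1, the constitutive form, had 971 and 1512 CPM with ATRA and 1135 and 1711 CPM with ethanol (log2 -0.20 ± 0.35, adjusted p 0.879, edgeR quasi-likelihood). Replicate 2 was the higher library in both groups and for both genes, and HSP90AB1 turned positive in the fits without ATRA replicate 1 (0.08) and without ethanol replicate 2 (0.15). The CPM ratio of HSP90AA1 to HSP90AB1 was 0.810 and 0.838 with ATRA and 0.826 and 0.709 with ethanol. Per kilobase HSP90AB1 had 417 ± 129 CPM with ATRA and 477 ± 137 CPM with ethanol (SD, n = 2 each).

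Cochaperones steer HSP90. STIP1, or HOP, bridges HSP70 and HSP90. It had 110 and 156 CPM with ATRA, against 178 and 194 CPM with ethanol (log2 -0.48 ± 0.27, adjusted p 0.475, edgeR quasi-likelihood), with -0.70 and -0.31 within replicates. AHSA1, which speeds the ATP use of HSP90, had 131 and 138 CPM with ATRA, barely below 143 and 144 CPM with ethanol (log2 -0.09 ± 0.23). Of 25 other HSP90 cochaperone genes 0 were called. In 9 (36%) both ATRA libraries were below both ethanol libraries and in 2 (8%) above, beside 21.7% and 23.8% of all genes tested. The median log2 fold change of the 25 was -0.20. CHORDC1, a heat-responsive HSP90 partner, had 86.7 and 74.5 CPM with ATRA, against 152 and 109 CPM with ethanol (log2 -0.69 ± 0.27, adjusted p 0.296, edgeR quasi-likelihood). RUVBL1, an ATPase that works with HSP90 in assembling large complexes, had 153 and 130 CPM with ATRA, against 239 and 183 CPM with ethanol (log2 -0.58 ± 0.26).

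The heat shock factors themselves overlapped between treatments. HSF1, the main factor of the heat shock response, had 42.3 and 29.8 CPM with ATRA and 36.2 and 31.9 CPM with ethanol (log2 0.08 ± 0.28). HSF2, a factor of development that can pair with HSF1, had 27.9 and 63.1 CPM with ATRA and 34.2 and 61.1 CPM with ethanol (log2 -0.07 ± 0.47). Its libraries differed by replicate number in both groups, and its sign turned in the fits without ATRA replicate 1 (0.39) and without ethanol replicate 2 (0.43). Of 8 tested genes among other heat shock factors and heat-inducible genes 0 were called. SQSTM1, the autophagy receptor p62, had 184 and 129 CPM with ATRA, above 88.4 and 71.3 CPM with ethanol (log2 0.97 ± 0.29, adjusted p 0.181, edgeR quasi-likelihood), with 1.06 and 0.85 within replicates.

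**Figure D4:**
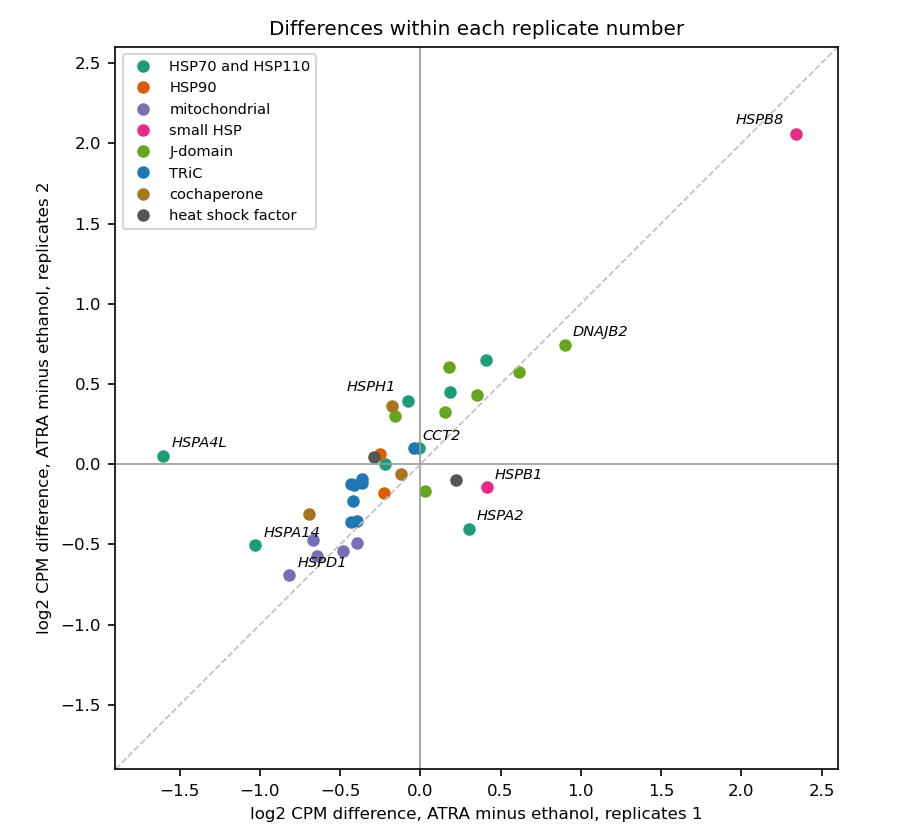
Difference in log2 CPM (prior count 2), ATRA minus ethanol, for the 37 chaperone genes tested, within the replicate 1 libraries (horizontal) and within the replicate 2 libraries (vertical); points are genes coloured by role and the dashed line marks equality. HSPB8 lies at 2.34 and 2.06, the mitochondrial chaperones lie below 0 on both axes, and HSPA4L lies at -1.60 on 1 axis and 0.05 on the other.

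Within both replicate numbers 8 of the 37 genes (21.6%) were higher and 17 (45.9%) were lower with ATRA, beside 38.3% and 35.3% of all genes tested. Among the 17 were 5 mitochondrial genes, 7 TRiC genes, STIP1 and AHSA1, while 5 of the 8 were J-domain genes. All 109 pathway genes outside the member list were found in the table and 100 were tested, with 0 called in either direction. At an unadjusted p under 0.05, 3 of these 100 were higher and 3 lower, beside 9.43% and 6.49% of all genes. In 16 both ATRA libraries were above and in 26 below both ethanol libraries, beside 23.8% and 21.7% of all genes.

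Genes with and without an exact match to heat shock element letters in their promoter windows had differences of both signs. Elements that depart from these letters were not looked for. A 2-unit element (GAANNTTC or TTCNNGAA, where N is any base; each reads the same on both strands) was found in 39.2% of the 51 chaperone windows and in 13.5% of all windows. A 3-unit element (GAANNTTCNNGAA or TTCNNGAANNTTC, which are each other's reverse complement and hold 2-unit elements) was found in 11.8% of the chaperone windows and in 0.490% of all windows. The 6 genes with a 3-unit element, DNAJA1, DNAJB6, HSP90AA1, HSP90AB1, HSPA8 and HSPD1, had log2 fold changes from -0.75 to 0.39 with a median of -0.09, and 1 of them had groups apart in each direction. The 13 genes tested that held a 2-unit element alone had a median of 0.04, with a range from -0.60 to 2.26. In 3 of the 13 both ATRA libraries were above both ethanol libraries and in 4 below. The 15 genes tested with neither had a median of -0.09, with a range from -0.57 to 0.84. In 1 of the 15 both ATRA libraries were above and in 8 below. Of all genes tested, 23.8% had groups apart with ATRA above and 21.7% with ATRA below. Several genes have more than 1 window, and a match describes letters in the window, not binding.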

How the data were processed

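The authors deposited raw read counts per gene symbol, 1 column per library. The tools STAR 2.5.2b, featureCounts 1.5.1 and the build hg19 are named, per the submitters' processing notes. Not given in the sources used here were the annotation, the use of strand and how reads matching several genes were treated, so overlapping and near-identical genes are uncertain. The 39 genes, their roles and the lists were chosen with earlier results of these data known.

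Genes passing filterByExpr (minimum count 10; 18900 genes) were fitted with edgeR 4.0.16 in R 4.3.3: TMM scaling, robust quasi-likelihood F test, treatment as the only term, two-sided, Benjamini-Hochberg over all genes tested, threshold 0.05. All 37 genes tested were over the filter level in all 4 libraries. SE is the log2 fold change divided by the root of F. CPM uses TMM-scaled library sizes, and log2 CPM a prior count of 2. limma 3.58.1 and DESeq2 1.42.0 were alternatives. The fit was run on simulated counts that had the same dispersion setting in every gene and no difference by replicate number. These libraries did part by replicate number, so that run does not tell how many changes the fit misses here. Exon lengths (CPM per kb), gene types and 50-base stretches came from GENCODE 29, and promoters from RefSeq, both on GRCh38; counts were on hg19.

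Statistics are given for the 12 chaperone genes with the smallest p, those differing by 1 or more on the log2 scale and the highest in each role, and for up to 2 genes per pathway list with the smallest p and log2 CPM of at least 1. Statistics of HSPA4L, DNAJC2, DNAJB5 and further members were added after they were seen. One gene that this rule names is not reported here.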

Additional observations from a re-analysis of the deposited data

How the results depend on the processing

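Over all genes, calls higher and lower numbered 103 and 29, and became 877 and 503 with DESeq2, 43 and 7 with limma-voom, 1126 and 695 over all genes having a read, and 180 and 74 with protein-coding genes alone. Without 1 library they ranged from 547 to 838 higher and from 231 to 604 lower. Chaperone genes called higher went to 1 (HSPB8) under DESeq2 and over all genes having a read, and leaving out 1 library gave 0 to 1 higher and 0 to 1 lower; other pathway genes gave 0 to 2 higher (SQSTM1 and DNAJB5 without ATRA replicate 2). The replicate numbers, of which only 2 stands in the titles, were shared by only 2 pairs. The deviations of same-numbered libraries correlated at 0.632 across genes. With these numbers as a replicate block, edgeR called 2325 genes higher (12.3% of those tested) and 1773 lower (9.38%). Of the 37 chaperone genes tested, this fit called 2 higher (HSPB8 and DNAJB2) and 6 lower (HSPD1, HSPE1, HSPA9, DNAJA3, HSPA14 and STIP1). Of the 100 other pathway genes tested, it called 6 higher and 8 lower. DESeq2 with the replicate block called 1528 genes higher (8.08%) and 1199 lower (6.34%), with 1 and 3 chaperone genes and 3 and 3 other pathway genes. The labels do not say that the numbers mark a shared culture or day.

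Of 475 values of 34 genes under 14 alternatives, 428 kept direction and side of the threshold, 36 passed it and 11 changed sign. Most of those that passed it were from the fits with the replicate block. The genes that changed sign were HSP90AB1, HSPB1, DNAJA1, HSF2, HSPB11 and HSPA4L. DNAJA1 was at -0.021 with library size alone and at -0.024 with protein-coding genes alone. Without 1 library, log2 fold changes ran from -0.57 (no ATRA replicate 2) to 0.15 (no ethanol replicate 2) for HSP90AB1, from -0.21 (no ethanol replicate 1) to 0.45 (no ethanol replicate 2) for HSPB1, from -0.30 (no ethanol replicate 2) to 0.43 for DNAJA1, from -0.79 (no ATRA replicate 2) to 0.43 (no ethanol replicate 2) for HSF2, from -1.28 (no ATRA replicate 2) to 0.35 (no ethanol replicate 2) for HSPB11 and from -1.94 (no ATRA replicate 2) to 0.30 (no ATRA replicate 1) for HSPA4L. The cause was not tested. Summing HSPA1A and HSPA1B changed no call.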
